A study of Homo sapiens with 9 samples.

Results

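The ID factors and the bone morphogenetic protein (BMP) pathway were followed through 10 transcripts: ID1, ID2, ID3 and ID4, the ligands BMP2, BMP4 and BMP7, the receptor BMPR2, and the signal transducers SMAD1 and SMAD6. They were taken by gene symbol from a table of 60564 human gene identifiers, and each symbol matched 1 row. They were chosen by their measured differences between the 3 groups of these libraries, among them the low ID1 level under WB436B. The levels of these 10 genes and their differences between groups are therefore given as a description, without a test. RNA-seq had been run on BxPC3, an established cell line from a human pancreatic ductal adenocarcinoma, with 3 libraries in each of 3 groups, which the labels name biological replicates. One group received vehicle, one was transfected with a small interfering RNA (siRNA) that targets STAT3, and one was treated with 0.1 µM WB436B, a compound for which only this code name is given. All cells were grown in the same RPMI medium with fetal bovine serum and antibiotics. How long the treatments lasted, and whether a non-targeting siRNA was used, is not given in the sources used here, so transfection and STAT3 loss cannot be told apart. No label says that the replicates were separate cultures, so p-values cover only the variation among these libraries, which may be technical.

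BMP ligands bind a pair of type I and type II receptor kinases, of which BMPR2 is a type II receptor. The type I kinase phosphorylates SMAD1, SMAD5 and SMAD9, which enter the nucleus with the common partner SMAD4 and switch on immediate targets, classically the ID genes and the inhibitory SMADs, SMAD6 and SMAD7, which close a feedback loop. ID proteins carry a helix-loop-helix domain without a DNA-binding region. They pair with E proteins such as TCF3 and TCF12 and keep them, and the tissue-specific factors that need them, off the E-box sites of DNA. In epithelial tumours ID1 is known for holding back differentiation and for repressing THBS1, which encodes an inhibitor of blood vessel growth. BxPC3 is known to carry homozygous deletions of SMAD4 and CDKN2A.

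The sequences just before the transcription start were set side by side for ID1, ID3 and SMAD6, because ID1 and SMAD6 were low in both treated groups while ID3 was high after the siRNA. RefSeq starts (build GRCh38.p14) were matched by symbol for 8 of the 10 genes, in 14 windows of 250 bases. Letters searched on both strands were TTCNNNGAA (the core of a STAT site), GGCGCC and GGAGCC (GC-rich sites of the BMP SMADs), CAGAC (a SMAD-binding element) and CANNTG (an E-box). Capitals mark every match except E-boxes, of which these 3 windows held 0, and no 2 matches overlapped in them.
ID1 (chr20:31605039-31605288, plus strand): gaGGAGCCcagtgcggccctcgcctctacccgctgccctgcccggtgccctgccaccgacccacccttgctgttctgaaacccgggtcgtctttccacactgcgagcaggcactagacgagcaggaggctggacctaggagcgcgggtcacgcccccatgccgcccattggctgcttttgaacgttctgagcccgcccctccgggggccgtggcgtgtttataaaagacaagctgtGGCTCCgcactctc
ID3 (chr1:23559502-23559751, minus strand): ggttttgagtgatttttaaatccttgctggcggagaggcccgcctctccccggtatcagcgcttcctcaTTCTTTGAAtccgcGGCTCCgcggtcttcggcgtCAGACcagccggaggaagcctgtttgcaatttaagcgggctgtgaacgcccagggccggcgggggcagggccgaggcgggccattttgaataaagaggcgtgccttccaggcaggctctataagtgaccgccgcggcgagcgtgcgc
SMAD6 (chr15:66701986-66702235, plus strand): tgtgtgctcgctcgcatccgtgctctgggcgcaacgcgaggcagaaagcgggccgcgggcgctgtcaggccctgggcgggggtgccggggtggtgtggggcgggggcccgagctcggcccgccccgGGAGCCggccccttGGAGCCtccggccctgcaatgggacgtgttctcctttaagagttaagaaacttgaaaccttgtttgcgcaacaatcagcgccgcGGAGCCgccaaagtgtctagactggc
The ID1 window held 2 matches to GGAGCC and the SMAD6 window 3, while 30.6% of 35114 such windows of all genes held at least 1. The share of windows with 2 or more was not computed. GGAGCC was also found in windows of BMP4, BMPR2, ID3, ID4 and SMAD1, so it did not set ID1 and SMAD6 apart. The window of ID4, a gene without detected transcript in any library, held 2. The ID3 window held 1 match to GGAGCC, 1 to CAGAC and 1 to TTCNNNGAA, the last starting 181 bases before the transcription start. TTCNNNGAA occurred in 6.57% of all windows, and of the 14 windows of these genes only that of ID3 held it. CAGAC occurred in 38.0% of all windows, GGCGCC in 16.4% and CANNTG in 61.8%. A match in these letters is a description of the window and not a measured binding site. Sequence outside these 250 bases was not searched, so a missing match says nothing about sites elsewhere.

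Levels are given as FPKM, fragments normalised for transcript length and library size, which allows levels of different genes to be compared. By an estimate of depth, 1 FPKM stood for about 47.2 fragments per kilobase of transcript in vehicle 1, the deepest library, and for 14.9 to 20.4 in the other 8. STAT3, the siRNA target, stood at 16.4, 15.8 and 15.1 FPKM under vehicle, at 2.98, 2.58 and 3.02 FPKM after the siRNA, and at 10.5, 10.9 and 10.8 FPKM under WB436B. Its 3 groups did not overlap, and an exact two-sided permutation test of each treatment against vehicle gave p = 0.1, the smallest that 3 against 3 libraries allow. All 7 ductal epithelial markers (KRT19, KRT7, KRT8, KRT18, EPCAM, CDH1 and MUC1) were above 1 FPKM in all 9 libraries. The 11 markers of leukocytes, endothelium, fibroblasts, acinar and islet cells summed to 2.74 to 3.40 FPKM in the vehicle group, 2.84 to 2.85 in the siRNA group and 1.20 to 1.62 under WB436B, with PNLIP, INS and GCG at 0 throughout. COL1A1, a fibroblast collagen gene, stood at 1.72 ± 0.119, 2.28 ± 0.108 and 0.725 ± 0.0609 FPKM in these groups (SD, n = 3), and the part of such transcripts in the results was not tested. Ductal marker sums were 1218 to 1274 FPKM in the vehicle group, 1182 to 1260 in the siRNA group and 1101 to 1225 under WB436B. Single markers did not all follow the sum. KRT18 averaged 91.6 FPKM under vehicle, 128 FPKM after the siRNA and 168 FPKM under WB436B. In bulk RNA, fewer cells of a kind and less RNA per cell cannot be told apart. FPKM values are relative to each library's total, and the median log2 fold change of all tested genes was 0.06 after the siRNA, -0.13 under WB436B and -0.18 between WB436B and the siRNA. Of the genes called, 57.2%, 37.7% and 31.2% were higher in these comparisons. Median-of-ratios scaling, which sets these medians near 0, gave 48.4%, 50.4% and 51.2%, quantile normalization 54.3%, 53% and 50%, and equal totals 63.7%, 43.5% and 32.5%.

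ID1 was by far the most abundant of the 10 transcripts. It stood at 289, 290 and 287 FPKM under vehicle, at 73.1, 76.5 and 69.3 FPKM after STAT3 siRNA, and at 30.5, 27.4 and 28.7 FPKM under WB436B. All 3 groups were apart, with vehicle highest and WB436B lowest. The siRNA libraries averaged 25.3% and the WB436B libraries 10.0% of the vehicle mean. On the scale of log2(FPKM + 1), used for all fold changes here, the difference from vehicle was -1.97 after the siRNA (standard error, SE, 0.0507) and -3.28 under WB436B (SE 0.0507). WB436B against the siRNA gave -1.31 (95% interval -1.42 to -1.19). The 3 vehicle libraries agreed closely, with a coefficient of variation of 0.442%, against 4.93% after the siRNA and 5.28% under WB436B. Its vehicle mean ranked 78 among 12747 genes that passed the filter on low values (at least 1 FPKM in at least 3 libraries).

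ID3, the paralogue with the next highest level, followed a different course. It stood at 2.11, 1.41 and 1.16 FPKM under vehicle, at 7.41, 6.54 and 6.62 FPKM after the siRNA, and at 2.31, 2.39 and 1.64 FPKM under WB436B. The siRNA libraries lay above all others, while those of vehicle and WB436B overlapped. The siRNA mean was 440% of the vehicle mean (6.85 ± 0.483 against 1.56 ± 0.491 FPKM, SD, n = 3), or 1.63 on the log2 scale (SE 0.145). WB436B against vehicle gave 0.29, with a 95% interval of -0.04 to 0.62 that includes 0, and 0.60 under quantile normalization. WB436B against the siRNA gave -1.34 (-1.67 to -1.01). ID1 and ID3 thus differed from vehicle in opposite directions after the siRNA, in 3 of 3 libraries each.

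**Figure D1:**
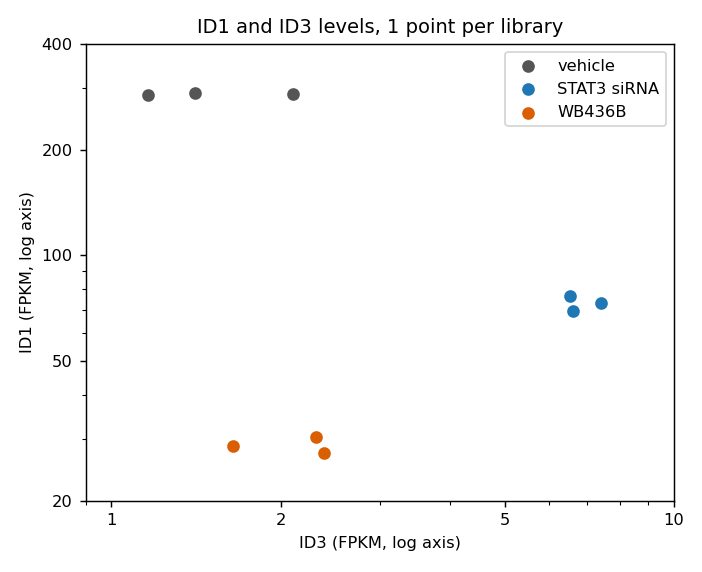
ID1 against ID3, both in FPKM on log axes, with 1 point per library and colours for vehicle, STAT3 siRNA and WB436B. The vehicle libraries lie at the upper left (ID1 287 to 290 FPKM), the siRNA libraries at the right (ID3 6.54 to 7.41 FPKM) and the WB436B libraries at the lower left (ID1 27.4 to 30.5 FPKM).

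The remaining ID paralogues were barely detected. ID2 stood at 0.00945 to 0.0580 FPKM in the vehicle group, 0.0927 to 0.192 in the siRNA group and 0.0154 to 0.110 under WB436B. The siRNA libraries lay above those of vehicle without overlap, and the WB436B libraries overlapped both. A fit without the filter on low values gave 0.13 after the siRNA (95% interval 0.025 to 0.232) and 0.05 under WB436B (-0.05 to 0.16). At the estimated depths the values rest on about 0.582 to 7.20 fragments per library. ID4 was listed at 0 in all 9 libraries, and with a single annotated transcript of 2344 bases a count of 3 fragments would correspond to 0.0861 FPKM in the shallowest library. ID1 therefore made up nearly all ID transcript in these cells: 99.3%, 99.5% and 99.6% of the summed ID level under vehicle. The share was 90.7%, 92.0% and 91.1% after the siRNA and 92.7%, 91.9% and 94.2% under WB436B. The sum itself was 290 ± 1.52 FPKM under vehicle, 80.0 ± 3.55 FPKM after the siRNA and 31.1 ± 1.60 FPKM under WB436B (SD, n = 3). The ratio of ID1 to ID3 within a library, which does not depend on scaling between libraries, was 137 to 247 under vehicle, 9.86 to 11.7 after the siRNA and 11.5 to 17.5 under WB436B. The ratio was thus lower in both treated groups, in the siRNA group with ID1 lower and ID3 higher, and in the WB436B group with ID1 lower and ID3 overlapping vehicle.

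**Figure D2:**
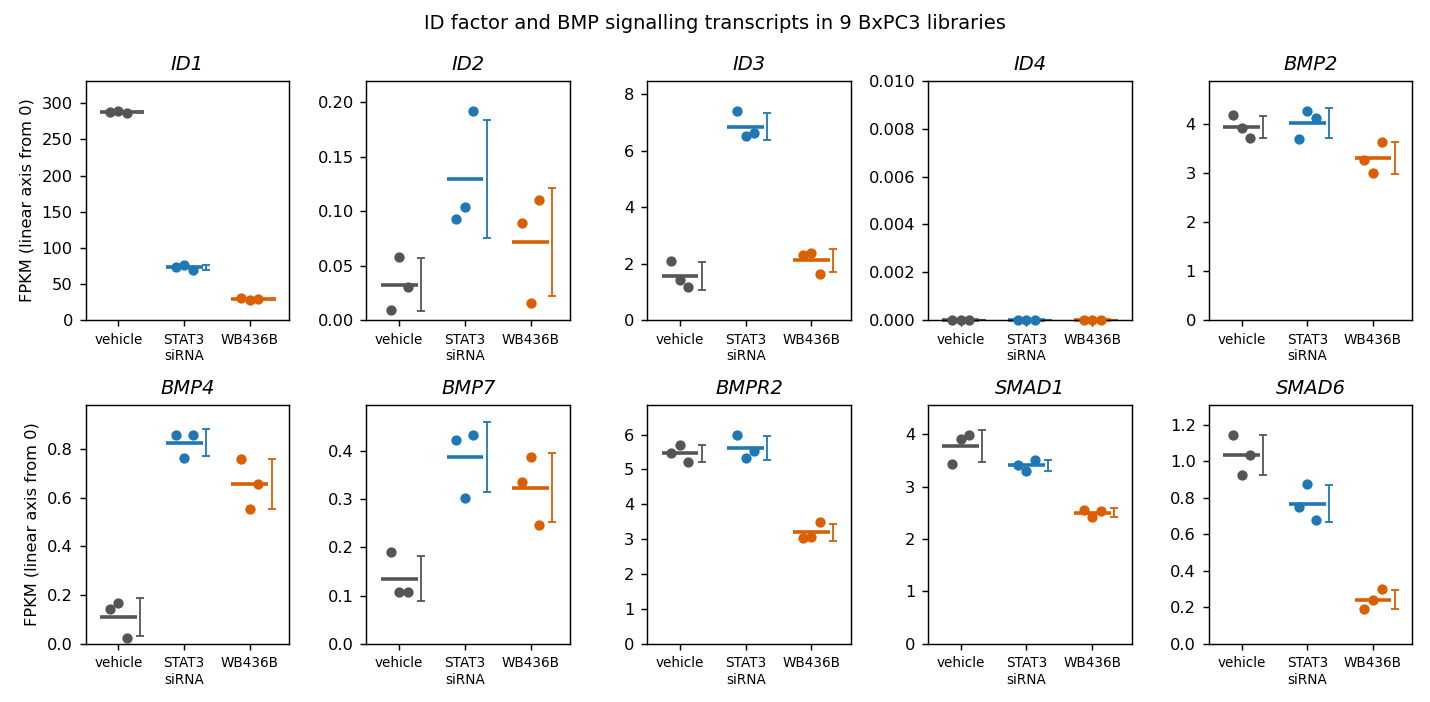
FPKM of the 10 genes in each library, on linear axes from 0 with a separate scale per gene. Points are libraries, horizontal lines are group means and the bars beside them are SD (n = 3). ID1 and SMAD6 are highest under vehicle and lowest under WB436B, ID3 is highest after STAT3 siRNA, and BMP4 and BMP7 are lowest under vehicle.

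Among the ligands, BMP2 was the main transcript. BMP2 stood at 4.19, 3.92 and 3.72 FPKM under vehicle, 3.69, 4.27 and 4.12 FPKM after the siRNA and 3.26, 3.00 and 3.65 FPKM under WB436B. The vehicle and siRNA libraries overlapped, and the WB436B libraries lay just below both. Its log2 fold change was 0.02 after the siRNA (95% interval -0.15 to 0.20) and -0.20 under WB436B (-0.37 to -0.03). The latter lies close to the median of all tested genes in that comparison, -0.13. It was -0.075 under median-of-ratios scaling and turned to 0.008 under quantile normalization, so no direction is given for BMP2.

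BMP4, a ligand of the same branch as BMP2, stood at 0.142, 0.166 and 0.0217 FPKM under vehicle. After the siRNA it was 0.858, 0.763 and 0.860 FPKM, and under WB436B 0.759, 0.552 and 0.656 FPKM. Both treated groups lay above vehicle in 3 of 3 libraries. They came close to each other without overlapping, the lowest siRNA library being at 0.763 and the highest WB436B library at 0.759 FPKM. These values rest on few fragments, about 0.619 to 31.4 per library, and BMP4 missed the filter on low values.

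BMP7, a ligand of another subgroup, stood at 0.108 to 0.189 FPKM in the vehicle group, 0.303 to 0.434 in the siRNA group and 0.247 to 0.388 under WB436B. Its treated groups lay above vehicle and overlapped each other. BMP7 missed the filter on low values, and its values rest on about 6.46 to 35.9 fragments per library. With BMP4 and BMP7 higher, BMP2 made up 94.3% ± 2.09 of the summed level of the 3 ligands under vehicle, 76.8% ± 2.96 after the siRNA and 77.1% ± 2.75 under WB436B (SD, n = 3). These shares depend on the few fragments behind BMP4 and BMP7. The sum was 4.19 ± 0.331 FPKM under vehicle, 5.24 ± 0.236 FPKM after the siRNA and 4.28 ± 0.313 FPKM under WB436B, so the vehicle and WB436B sums differed by less than their spread.

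The receptor BMPR2 stood at 5.47, 5.71 and 5.22 FPKM under vehicle, 6.0, 5.33 and 5.53 FPKM after the siRNA and 3.03, 3.08 and 3.48 FPKM under WB436B. Vehicle and siRNA libraries overlapped, and WB436B libraries lay below both. WB436B held 58.4% of the vehicle mean, which on the log2 scale was -0.63 (SE 0.0641), against 0.03 (SE 0.0641) after the siRNA. WB436B against the siRNA gave -0.66 (95% interval -0.80 to -0.51). Both of these WB436B values were -0.43 under quantile normalization.

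SMAD1, the receptor-activated transducer, stood at 3.43, 3.91 and 4.0 FPKM under vehicle, 3.43, 3.30 and 3.51 FPKM after the siRNA and 2.56, 2.42 and 2.54 FPKM under WB436B. Here too only the WB436B libraries stood apart, at 66.3% of the vehicle mean. The log2 fold change was -0.45 under WB436B (SE 0.0598) and -0.11 after the siRNA (95% interval -0.25 to 0.02). Quantile normalization made the WB436B value -0.20, and the difference from the siRNA -0.04 in place of -0.33. A share of 6.2% of SMAD1 exon bases is also covered by the antisense gene SMAD1-AS1, whose reads cannot be told apart if the libraries carried no strand.

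SMAD6, the inhibitory SMAD that BMP signals induce, stood at 1.15, 0.922 and 1.03 FPKM under vehicle, 0.748, 0.875 and 0.678 FPKM after the siRNA and 0.191, 0.237 and 0.297 FPKM under WB436B. The 3 groups did not overlap and, as for ID1, vehicle was highest and WB436B lowest. The siRNA group held 74.2% and the WB436B group 23.4% of the vehicle mean. SMAD6 missed the filter on low values, with 2 libraries at 1 FPKM or more, and about 20.2 to 281 fragments lay behind its values. A fit without that filter gave log2 fold changes of -0.20 (95% interval -0.38 to -0.02) after the siRNA and -0.71 (-0.89 to -0.53) under WB436B. The ratio of SMAD6 to SMAD1 within a library was 0.236 to 0.334 under vehicle, 0.193 to 0.265 after the siRNA and 0.0746 to 0.117 under WB436B, so that only the WB436B libraries stood apart.

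**Figure D3:**
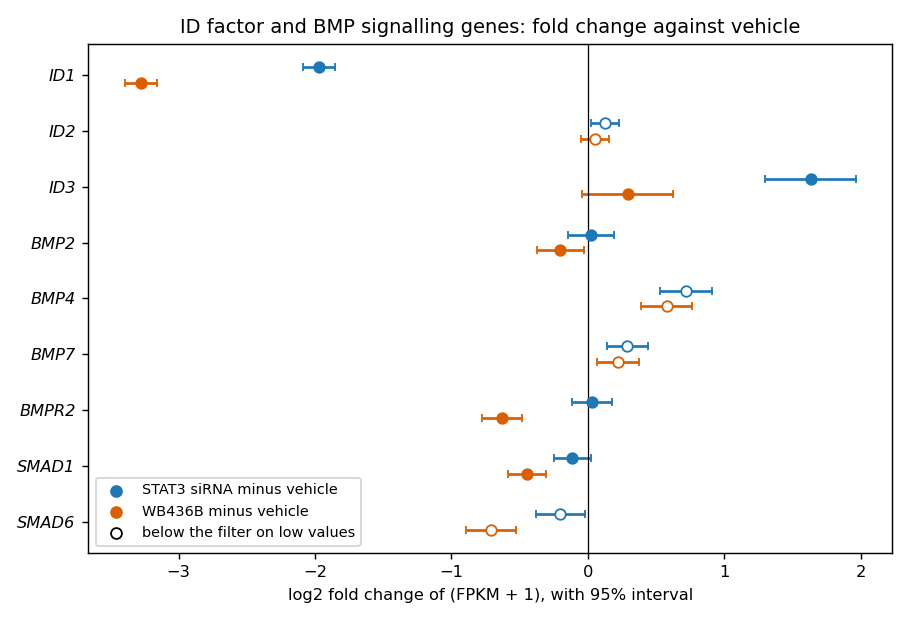
Log2 fold change of (FPKM + 1) against vehicle for 9 of the 10 genes, with 95% intervals from the linear model. Blue stands for STAT3 siRNA and orange for WB436B, and open points are genes below the filter on low values. ID1 is lower in both, at -1.97 and -3.28, while the intervals of BMPR2 and SMAD1 exclude 0 under WB436B and include it after the siRNA, and ID3 is higher after the siRNA at 1.63.

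The order of the levels changed with treatment. Under vehicle it ran from ID1 through BMPR2, BMP2, SMAD1, ID3, SMAD6, BMP7, BMP4 and ID2 to ID4, and the neighbours BMP2 and SMAD1, BMP7 and BMP4, and BMP4 and ID2 overlapped. After the siRNA ID3 came second with 6.85 FPKM, above BMPR2 with 5.62 ± 0.345 FPKM, and the libraries of these neighbours did not overlap. Under WB436B BMP2 with 3.30 ± 0.326 FPKM and BMPR2 with 3.19 ± 0.249 FPKM shared the second place and overlapped. SMAD6 was below BMP4 and BMP7 in mean under WB436B, whereas under vehicle it exceeded both.

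Of the 10 genes, 5 passed the filter on low values: ID1, ID3, BMP2, BMPR2 and SMAD1. By the rule applied to all genes (limma, Benjamini-Hochberg adjusted p below 0.05), 1 was called higher and 1 lower after the siRNA, where 52.1% of all tested genes were called, 29.8% higher and 22.3% lower. Under WB436B 4 were called, all lower, where 65.9% of all tested genes were called and 41.1% were called lower. Between the treatments all 5 were called lower under WB436B, where 64.1% of all tested genes were called and 44.1% were called lower. Libraries of the groups did not overlap for 2, 4 and 5 of the 5 in these comparisons, against 60.5%, 70.1% and 70.2% of all tested genes. The 10 genes were chosen with these contrasts known, so nothing is read from their counts.

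The 5 transcripts most like ID1 were taken from 6303 tested genes that averaged at least 5 FPKM, by the distance between their pair of log2 fold changes against vehicle and that of ID1. Both fold changes share the vehicle libraries, and the list has no test. TNFSF10, the death ligand TRAIL, was nearest at a distance of 0.233, with 32.3 ± 1.38 FPKM under vehicle, 8.90 ± 0.540 FPKM after the siRNA and 2.25 ± 0.140 FPKM under WB436B. FGFR3, a fibroblast growth factor receptor, followed at 0.282 (28.0 ± 3.86, 7.54 ± 1.28 and 2.42 ± 0.263 FPKM). The complement component C3 lay at 0.421 (43.4 ± 2.37, 12.1 ± 0.514 and 4.88 ± 0.0836 FPKM). LCN2, a siderophore-binding protein, lay at 0.537 and PI3, an elastase inhibitor, at 0.619. After the siRNA LCN2 differed more from vehicle than ID1 (-2.50) and PI3 less (-1.46). Under WB436B the 5 genes lay between -2.92 and -3.36, on either side of ID1 at -3.28.

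**Figure D4:**
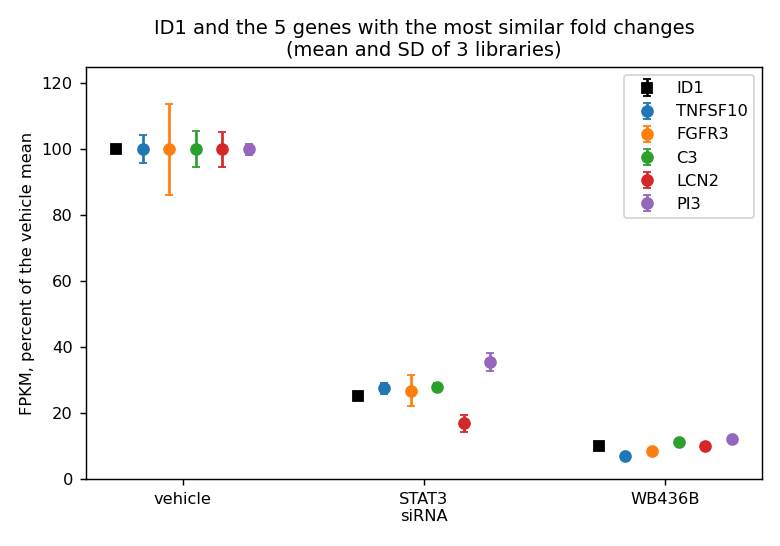
Mean FPKM as a percentage of the vehicle mean (points) with SD over 3 libraries (bars), for ID1 (black squares) and the 5 genes nearest to it. ID1 stands at 25.3% after STAT3 siRNA and 10.0% under WB436B, and after the siRNA LCN2 lies below it and PI3 above it.

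Other components of the pathway were taken from a list of 44 ligands, receptors, SMADs, antagonists and modulators that held none of the 10 genes. This list and those of BMP targets and of ID partners and targets were chosen with earlier results of these data known. Their shares called and p-values are therefore not independent support. SMAD4, the common partner of BMP and TGF-beta SMADs, was listed at 0 in all 9 libraries, although all 73 cytosolic ribosomal protein genes were above 0 in every library. Of the 44, 17 passed the filter, 26 never reached 1 FPKM, and BAMBI, a decoy receptor that BMPs induce, reached it in 2 siRNA libraries. ACVR2A, a type II receptor, passed through the siRNA libraries alone (1.17 to 1.31 FPKM, against 0.847 to 0.953 under vehicle and 0.760 to 0.816 under WB436B) and so had to be high there. The counts of the lists therefore leave out genes that passed through 1 group alone, of which the whole table held 423, and are set beside all other tested genes. After the siRNA 3 of the other 16 components rose and 3 fell, or 37.5% against 50.7% of all genes, and their median log2 fold change was -0.14 against 0.06. Under WB436B 4 rose and 7 fell, or 68.8% against 65.6%, with a median of -0.11 against -0.11. Between the treatments 6 were higher and 4 lower under WB436B, 62.5% against 63.9% of all genes. These shares turned with the scaling: median-of-ratios scaling called 11 of the 16 after the siRNA (68.8% against 48.8% of all genes), 8 under WB436B (50% against 66%) and 13 between the treatments (81.2% against 62.1%).

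Among the receptors, BMPR1A, a type I BMP receptor, stood at 2.16 ± 0.134 FPKM under vehicle, 1.83 ± 0.0244 FPKM after the siRNA and 1.72 ± 0.157 FPKM under WB436B. Its log2 fold change was -0.16 after the siRNA (adjusted p = 0.060), which median-of-ratios scaling called (-0.20, adjusted p = 0.024), as did leaving out WB436B 3 (adjusted p = 0.046). Under WB436B BMPR1A gave -0.22 (adjusted p = 0.012), a call lost under median-of-ratios scaling (adjusted p = 0.13) and equal totals (adjusted p = 0.054) and turned to 0.09 by quantile normalization (adjusted p = 0.23). BMPR1B rose after the siRNA from 1.14 ± 0.223 to 1.90 ± 0.468 FPKM (0.43, adjusted p = 0.020), a call lost without vehicle 1 (adjusted p = 0.068), siRNA 2 (0.068) or siRNA 3 (0.070). ACVR1, another type I receptor, stood at 9.22 ± 0.796, 8.18 ± 0.248 and 9.78 ± 0.394 FPKM and was called in neither comparison with vehicle (-0.15, adjusted p = 0.077, and 0.08, adjusted p = 0.30). Without vehicle 1 the siRNA difference of ACVR1 was called (-0.22, adjusted p = 0.013), and median-of-ratios scaling called both (adjusted p = 0.017 and 0.0095). The co-receptor RGMB rose in both, from 3.80 ± 0.188 to 5.56 ± 0.235 FPKM after the siRNA (0.45, adjusted p = 0.00030) and to 5.95 ± 0.356 FPKM under WB436B (0.54, adjusted p = 5.8e-05), although 45.6% of its exon bases are shared with other gene models.

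Of the signal transducers, SMAD7, like SMAD6 an inhibitory SMAD, stood at 1.49, 2.07 and 1.56 FPKM under vehicle, 1.49, 1.70 and 1.52 FPKM after the siRNA and 0.579, 0.548 and 0.691 FPKM under WB436B. It fell under WB436B to 35.5% of the vehicle mean (-0.75, SE 0.0889, adjusted p = 0.00010) and also against the siRNA (-0.68, adjusted p = 0.00020). After the siRNA SMAD7 overlapped vehicle (-0.07, adjusted p = 0.55). SMAD5, which transduces BMP signals like SMAD1, ranged from 2.08 to 6.96 FPKM within the vehicle group alone, and neither comparison with vehicle was called (adjusted p = 0.70 and 0.84). SKI, a corepressor of SMAD complexes, fell under WB436B from 17.7 ± 1.43 to 11.9 ± 0.584 FPKM (-0.54, adjusted p = 0.00013) and was not called after the siRNA (0.14, adjusted p = 0.12), with -0.67 between the treatments (adjusted p = 3.9e-05).

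The extracellular antagonists moved in both directions. FST, which encodes follistatin, a binder of activins and some BMPs, was the most abundant, at 81.5, 83.0 and 92.8 FPKM under vehicle. It fell to 39.5, 39.8 and 35.1 FPKM after the siRNA (-1.15, adjusted p = 3.3e-06) and stood at 98.7, 95.5 and 95.7 FPKM under WB436B (0.17, adjusted p = 0.043). The latter call of FST was lost when vehicle 1 or 2, siRNA 1 or any WB436B library was left out (adjusted p = 0.054 to 0.13), and under quantile normalization (0.05, adjusted p = 0.53). The direct difference of FST between the treatments was 1.32 (adjusted p = 1.0e-06). Its relative FSTL3 rose in both, from 1.85 ± 0.638 to 4.37 ± 0.370 FPKM after the siRNA (0.94, adjusted p = 0.0019) and to 8.16 ± 1.30 FPKM under WB436B (1.70, adjusted p = 3.5e-05), and the treatments differed by 0.76 (adjusted p = 0.0041). NBL1, a secreted BMP antagonist of the DAN family, fell after the siRNA from 18.2 ± 0.182 to 11.6 ± 0.401 FPKM (-0.61, adjusted p = 3.3e-05), with 17.8% of its exon bases shared with other gene models. CRIM1, a membrane protein that binds BMPs, rose under WB436B from 8.36 ± 0.655 to 15.7 ± 0.673 FPKM (0.84, adjusted p = 4.9e-06) and stood at 7.46 ± 0.214 FPKM after the siRNA, WB436B against the siRNA giving 0.98 (adjusted p = 3.0e-06). BMP1, which despite its name is a protease that cleaves the antagonist chordin, fell under WB436B from 20.8 ± 0.975 to 11.8 ± 0.426 FPKM (-0.77, adjusted p = 1.8e-05) and was also lower than after the siRNA (-0.63, adjusted p = 6.9e-05). NOG, which encodes the antagonist noggin, averaged 0.0603 FPKM under vehicle, 0.279 FPKM after the siRNA and 0.332 FPKM under WB436B and was too weak to be tested.

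**Figure D5:**
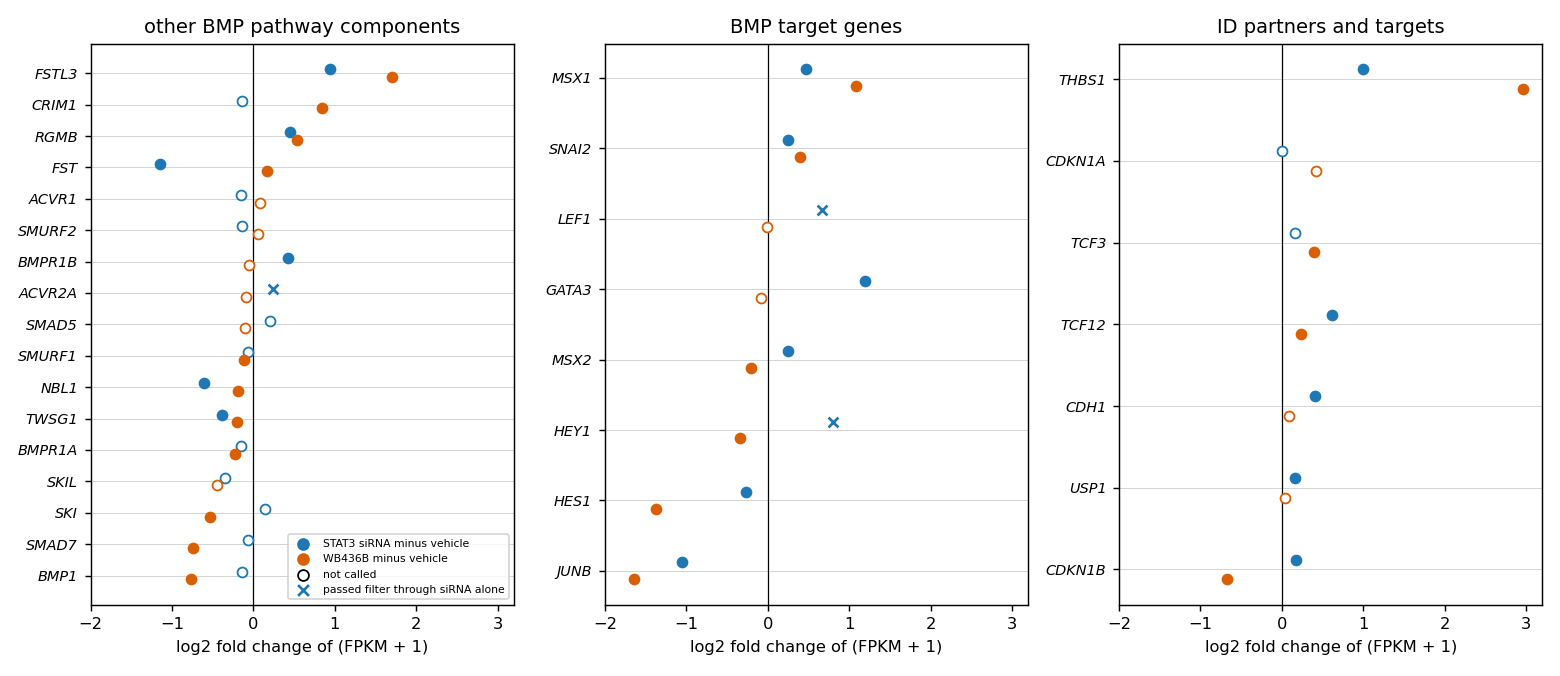
Log2 fold change of (FPKM + 1) against vehicle for every tested gene of 3 lists, sorted by the WB436B value. Blue is STAT3 siRNA, orange is WB436B, filled points passed an adjusted p of 0.05 and open points did not, and crosses are the siRNA values of ACVR2A, HEY1 and LEF1, which passed the filter through the siRNA libraries alone. Of the genes drawn, THBS1 has the highest WB436B value at 2.96, and JUNB and HES1 the lowest at -1.64 and -1.38.

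A list of 22 other known BMP target genes gave 8 tested genes, while 13 never reached 1 FPKM. It too was chosen with earlier results known, so its shares are a description. HEY1 and LEF1 passed the filter through the siRNA libraries alone, so they had to be high there and are given without a test against that group. Of the other 6, 4 rose and 2 fell after the siRNA, or 100% against 50.7% of all genes counted in the same way. Under WB436B 2 rose and 3 fell, or 83.3% against 65.6%, and between the treatments 1 was higher and 4 lower under WB436B, or 83.3% against 63.9%. Medians against vehicle were 0.25 and -0.15, against 0.06 and -0.11 for all genes. Under WB436B median-of-ratios scaling and quantile normalization each called 4 of the 6, or 66.7% against 66% and 60.8% of all genes. Leaving out any vehicle library, WB436B 1 or WB436B 2 also left 4 called there. After the siRNA both scalings called 6, and 5 were called without vehicle 1 or 2 or siRNA 2 or 3. Between the treatments the 2 scalings called 6 and 4. JUNB, an AP-1 factor that is also a known STAT3 target, fell from 90.1 ± 0.951 FPKM to 43.1 ± 1.5 FPKM after the siRNA (-1.05, adjusted p = 2.4e-06) and to 28.2 ± 2.14 FPKM under WB436B (-1.64, adjusted p = 1.2e-07), with -0.59 between the treatments (adjusted p = 3.0e-05). HES1, a repressor that Notch signals also induce, stood at 26.2, 29.4 and 29.7 FPKM under vehicle, 24.0, 23.5 and 22.6 FPKM after the siRNA and 10.3, 10.6 and 10.0 FPKM under WB436B. Both differences of HES1 from vehicle were called (-0.27, adjusted p = 0.0039, and -1.38, adjusted p = 2.7e-07), as was that between the treatments (-1.11, adjusted p = 1.2e-06). In JUNB and HES1 the groups were apart, vehicle highest and WB436B lowest.

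Other targets were not ordered that way. MSX1, a homeobox gene induced by BMPs in development, rose in both comparisons, from 1.25 ± 0.182 to 2.11 ± 0.108 FPKM after the siRNA (0.47, adjusted p = 0.00070) and to 3.75 ± 0.156 FPKM under WB436B (1.08, adjusted p = 2.9e-06), where it exceeded the siRNA value by 0.61 (adjusted p = 0.00010). GATA3, a transcription factor of epithelial lineages, rose after the siRNA from 1.10 ± 0.316 to 3.80 ± 0.357 FPKM (1.20, adjusted p = 5.0e-05) and was not called under WB436B (-0.08, adjusted p = 0.55). HEY1 stood at 0.914, 0.702 and 0.877 FPKM under vehicle and at 2.18, 2.12 and 2.24 FPKM after the siRNA. Under WB436B HEY1 fell to 0.378, 0.433 and 0.512 FPKM (-0.34, adjusted p = 0.0019), which quantile normalization turned to 0.09. LEF1, a Wnt effector, stood at 0.266, 0.381 and 0.320 FPKM under vehicle, 1.05, 1.25 and 1.02 FPKM after the siRNA and 0.289, 0.320 and 0.321 FPKM under WB436B. LEF1 was not called under WB436B (-0.01, adjusted p = 0.88), a value that quantile normalization turned to 0.40 and called (adjusted p = 0.0020). WB436B against the siRNA gave -1.28 for GATA3 (adjusted p = 2.0e-05). SNAI2, a repressor of epithelial genes, and MSX2 completed the list, SNAI2 rising in both comparisons (0.25, adjusted p = 0.0075, and 0.40, adjusted p = 0.00038). MSX2 rose after the siRNA (0.24, adjusted p = 0.019) and fell under WB436B (-0.21, adjusted p = 0.028). Each MSX2 call was lost without some single libraries, vehicle 1 or 2 and siRNA 2 or 3 for the former and any vehicle library, WB436B 1 or 2 for the latter (adjusted p = 0.052 to 0.096), and quantile normalization turned the WB436B value to 0.105.

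The partners and known targets of ID proteins formed a list of 22 genes, of which 7 were tested. This list was likewise chosen with earlier results known. After the siRNA 5 rose and 0 fell by limma, and 0 were lower at an unadjusted p below 0.05. Under WB436B 3 rose and 1 fell. The shares called were 71.4% and 57.1%, against 50.7% and 65.6% of all genes counted as for the other lists. Without siRNA 1 or siRNA 3, 3 were called after the siRNA, and 3 under median-of-ratios scaling (42.9% against 48.8% of all genes). Medians were 0.18 and 0.24, against 0.06 and -0.11 for all genes. The 5 that rose after the siRNA included USP1, an enzyme and not an E protein (0.165, adjusted p = 0.031). That call of USP1 was lost under median-of-ratios scaling (adjusted p = 0.18) and with no filter (0.059). It was also lost without vehicle 1 or 2 or siRNA 1 or 3 (adjusted p = 0.083 to 0.10). TCF12, an E protein and direct partner of ID proteins, rose from 5.53 ± 0.549 to 9.02 ± 0.363 FPKM after the siRNA (0.62, adjusted p = 0.00025) and to 6.71 ± 0.577 FPKM under WB436B (0.24, adjusted p = 0.024). The WB436B call of TCF12 was lost without vehicle 3 (adjusted p = 0.072) or WB436B 3 (0.081). TCF3, the gene of the E proteins E12 and E47, stood at 4.68 ± 0.288, 5.35 ± 0.180 and 6.44 ± 0.434 FPKM and rose under WB436B (0.39, adjusted p = 0.00053). After the siRNA TCF3 gave 0.16 (adjusted p = 0.054), called without vehicle 2 (adjusted p = 0.036) or WB436B 3 (0.043). The third E protein gene, TCF4, averaged 0.00468 FPKM in its highest group.

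THBS1, the thrombospondin gene that ID1 is known to repress, had its lowest levels under vehicle and its highest under WB436B, the inverse of ID1. It stood at 13.8, 13.0 and 12.6 FPKM under vehicle, 27.6, 27.2 and 26.5 FPKM after the siRNA and 106, 107 and 113 FPKM under WB436B. THBS1 rose to 207% of the vehicle mean after the siRNA (1.00, adjusted p = 1.2e-06) and to 829% under WB436B (2.96, adjusted p = 6.9e-09), and WB436B exceeded the siRNA by 1.96 (adjusted p = 4.5e-08). The 3 groups did not overlap. THBS1 belongs to a list chosen with earlier results of these data known, so its p-values are not independent support. Whether the THBS1 level depended on that of ID1 was not tested.

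Among the cell cycle inhibitors in the list of ID partners and targets, CDKN1B rose after the siRNA from 16.6 ± 0.767 to 18.9 ± 0.825 FPKM (0.18, adjusted p = 0.018). That call of CDKN1B was lost under median-of-ratios scaling (0.11, adjusted p = 0.13) and without vehicle 2 or 3 or siRNA 1 or 3 (adjusted p = 0.053 to 0.063). CDKN1B fell under WB436B to 9.97 ± 0.310 FPKM (-0.68, adjusted p = 6.2e-06), and WB436B against the siRNA gave -0.86 (adjusted p = 2.6e-06). CDKN1A stood at 28.2, 8.61 and 30.3 FPKM under vehicle, 26.5, 25.7 and 10.9 FPKM after the siRNA and 26.4, 26.7 and 26.5 FPKM under WB436B. One library was low in the vehicle group and one in the siRNA group, and neither comparison with vehicle was called (adjusted p = 1.0 and 0.46). CDKN2A and CDKN2B were listed at 0 in all 9 libraries. The tissue-specific partners of E proteins were also close to absent, with none of 11 such genes reaching the filter.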

How the data were processed

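RNA-seq was run on total RNA of BxPC3 cells, 3 libraries per group. The authors deposited FPKM values, 1 column per library, for 60564 human gene identifiers. Per the submitters' processing notes, Bowtie 0.12.2 was used with mm8, a mouse build, although the identifiers are human, which leaves the build uncertain. No program for FPKM, annotation or strand setting is given in the sources used here. Depth was inferred from the smallest increments of FPKM in weak genes that have 1 transcript in GENCODE 29. Only 34.8 to 38.6% of those values were whole multiples of the increment (within 0.05 fragment, up to 10 fragments), so fragment numbers are approximate, cover counting error only, and no count model was used.

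The 12747 genes that reached 1 FPKM in 3 or more libraries were fitted as log2(FPKM + 1) by limma 3.58.1, run under R 4.3.3 (limma-trend, a mean per group, all 9 libraries, 6 residual degrees of freedom), two-sided, with Benjamini-Hochberg adjustment over all tested genes and calls at an adjusted p below 0.05. Such fold changes understate the change of weak genes. The fit was tested on simulated data. Intervals of ID2, BMP4, BMP7 and SMAD6 come from a fit without the filter.

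The 10 genes and the lists were chosen with earlier results of these data known. Named from the lists were tested genes called with a log2 fold change of at least 0.5 in size, and STAT3, SMAD4, SMAD5, BMPR1A, ACVR1, TCF3, TCF12, CDKN1A and THBS1. ACVR2A, BMPR1B, MSX2, SNAI2, USP1 and smaller values of other genes were chosen after their values were seen. Alternatives were other pseudocounts, filters, scalings and fits, a replicate block, and leaving out each library.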

Additional observations from a re-analysis of the deposited data

How the results depend on the processing

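Leaving out each library in turn gave 5715 to 6582 genes called after the siRNA, 7539 to 8276 under WB436B and 7400 to 8165 between the treatments. For the pathway components it gave 5 to 8, 8 to 10 and 9 to 12, for the BMP targets 5 to 8, 5 to 6 and 5 to 8 (the 5 after the siRNA without siRNA 2 or 3, when HEY1 and LEF1 missed the filter and MSX2 its call), and for the ID partners and targets 3 to 6, 3 to 4 and 5 to 6. A filter of 5 FPKM, which tests fewer genes, called 4138, 4860 and 4629 genes and 3, 3 and 2 BMP targets. After the siRNA, 12 components were called with no filter and 12 with median-of-ratios scaling. Median-of-ratios scaling, with or without the replicate block, called 3 ID partners and targets after the siRNA and 3 between the treatments. Deviations from the group means correlated at -0.085 to 0.158 in 9 same-numbered pairs and at -0.124 to 0.074 in 18 other pairs. Above 0.1 were 2 of the former, vehicle 2 with siRNA 2 (0.119) and vehicle 3 with siRNA 3 (0.158), and 0 of the latter. These values do not settle whether the replicate numbers paired the libraries. The replicate block called 6312, 8152 and 7959 genes. The median-of-ratios factors were first taken from all genes above 0 and, after those values were seen, from genes that passed the filter. The first version, an alternative chosen after seeing the data, called 3 ID partners and targets after the siRNA and made 51.2%, 59.7% and 60.5% of all calls upward. It turned BMP2 under WB436B to 0.031 and BMP2 between the treatments to 0.048, and under WB436B SMURF1 to 0.167 (adjusted p = 0.0098), NBL1 to 0.085 and TWSG1 to 0.075, and between the treatments CDH1 to 0.034, USP1 to 0.204 (adjusted p = 0.0099), SMURF1 to 0.279 (adjusted p = 0.00067) and BMPR1A to 0.161 (adjusted p = 0.045). Quantile normalization turned BMP2 to 0.008 under WB436B and 0.021 between the treatments, BMPR1A to 0.090, MSX2 to 0.105, HEY1 to 0.089, LEF1 to 0.401 (adjusted p = 0.0020) and ACVR2A to 0.295 (adjusted p = 0.0027) under WB436B, and between the treatments ACVR2A to 0.061 and BMPR1A to 0.264 (adjusted p = 0.0060). With median-of-ratios scaling, also with the replicate block, SMURF1 turned to 0.039 under WB436B and to 0.170 between the treatments (adjusted p = 0.011, and 0.030 with the block). The cause of these changes was not tested. Leaving out of the counts the genes that passed the filter through 1 group alone was also chosen after seeing the data, and left 6248, 8079 and 7875 genes called. Among the 10 genes 47 of their alternative values moved by at least 1 SD. Another 4, all of BMP2, moved as far and changed sign from a main value above 2 SD. Sign changes of values closer to 0 were not counted. ID2, BMP4, BMP7 and SMAD6 missed the filter, so only the fit without it gave their values, and they and ID4 are limited by depth.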
